A study of Mus musculus with 10 samples.

Results

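A set of 10 regulators of the choice between epithelial and mesenchymal identity were followed in cultured mouse mammary epithelial cells. They were chosen by gene symbol, though with earlier results of these data known, and are 10 of the 53167 genes in the deposited table. They fall into 5 mesenchymal regulators (Snai1, Snai2, Twist1, Zeb1 and Zeb2) and 5 epithelial regulators (Ovol1, Ovol2, Grhl2, Esrp1 and Esrp2). The cells were wild-type primary cells from the mouse mammary gland, grown in serum-containing medium. The BGN group was 5 samples given 100 ng/mL of the protein biglycan, a small leucine-rich proteoglycan found in extracellular matrix, and the Control group was 5 samples given none. The labels state neither the time of exposure, nor the age or strain of the animals, nor whether the replicates were separate cultures, so the p-values speak only to variation among these libraries, which may be technical in origin. The study concerned biglycan, WNT signalling and the migration of mammary epithelium, and the comparison shows whether these identity regulators differed with biglycan.

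In epithelial-mesenchymal transition (EMT), the zinc-finger repressors SNAI1, SNAI2, ZEB1 and ZEB2 bind E-box sequences in the promoters of adhesion genes such as Cdh1 and silence them, and the bHLH factor TWIST1 acts with them. OVOL1, OVOL2 and GRHL2 are transcription factors that keep the epithelial state, in part by repressing Zeb1, while ESRP1 and ESRP2 are RNA-binding proteins that impose epithelial splicing on transcripts such as Fgfr2 and Cd44. In the mammary gland SNAI2 is also a normal factor of basal cells, where it is linked to stem cell activity, so its transcript alone does not mark EMT.

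The letters these repressors recognise are shown first, in promoters for which expression is given further on. The E-box searched was CACCTG, read on either strand (CACCTG or CAGGTG), in RefSeq promoter windows of build GRCm38.p6, each of 300 bases from 250 before to 50 after a transcription start. The counts were made on another build, GRCm39, and use none of these coordinates. Of all 32851 windows, 20.2% held the word at least once. Among 18 genes listed as epithelial targets of the repressors, 11 had a window, and 10 of these held the word in at least 1 window (13 of 17 windows, 76.5%); such targets are known in part because of their E-boxes, so this share describes the list. Only 4 of the 10 regulators had a window (Snai1, Twist1, Zeb2 and Ovol2), and only that of Snai1 held the word. Below are the 250 bases upstream of the start for Snai1, the regulator with the largest estimated difference among the 7 tested, and for Epcam and Crb3, an adhesion and a polarity gene of epithelium. E-boxes are in capitals, and they begin at position -126 in Snai1, at -187 and -19 in Epcam and at -118, -63 and -7 in Crb3, counted from the start, with -1 the base before it. A match is a description of these letters and not a measured binding site.

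Snai1, chr2:167537945-167538194, plus strand: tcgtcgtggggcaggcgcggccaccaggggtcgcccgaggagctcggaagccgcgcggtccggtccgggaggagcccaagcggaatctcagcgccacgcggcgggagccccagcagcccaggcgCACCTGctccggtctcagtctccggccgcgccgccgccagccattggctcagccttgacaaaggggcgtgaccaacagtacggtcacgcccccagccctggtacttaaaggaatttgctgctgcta
Epcam, chr17:87635729-87635978, plus strand: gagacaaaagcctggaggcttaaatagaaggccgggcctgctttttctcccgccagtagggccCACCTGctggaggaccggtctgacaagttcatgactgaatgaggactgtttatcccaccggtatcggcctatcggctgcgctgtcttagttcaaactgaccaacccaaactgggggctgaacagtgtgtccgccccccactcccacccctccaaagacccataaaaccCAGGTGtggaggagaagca
Crb3, chr17:57061951-57062200, plus strand: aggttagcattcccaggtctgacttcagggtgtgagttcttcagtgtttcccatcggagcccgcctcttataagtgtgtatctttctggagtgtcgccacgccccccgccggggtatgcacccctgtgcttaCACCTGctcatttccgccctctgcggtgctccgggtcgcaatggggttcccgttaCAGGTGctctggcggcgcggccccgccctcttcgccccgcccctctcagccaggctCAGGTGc

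The libraries carried keratins and other markers of mammary epithelium, with low sums of endothelial and immune markers and a larger sum of fibroblast markers. The keratin genes Krt14 (basal) and Krt8 (luminal) had means of 3636 and 896 CPM, where CPM is the read count scaled to library size. All 10 luminal markers and 7 of 9 basal markers passed the filter on low counts. Among the contractile basal genes Myh11 was at 0.202, Cnn1 at 0.271 and Mylk at 3.94 CPM, with Acta2 higher at 27.7 CPM. Oxtr, on the same basal list, was at 166 CPM. Marker sums were scaled by library totals. The 10 fibroblast markers summed to 91.5 to 125 CPM per library in BGN and 100.1 to 122 in Control. Most of this was Fbln2 and Pdgfra, with means of 62.9 and 38.8 CPM over all libraries. Col1a1 was at 4.42, Dcn at 2.64 and Pdgfrb at 0.612 CPM. Dpt was at 0, and Col1a2, Col3a1, Lum and Thy1 were below 0.5 CPM on average. Sums were 4.43 to 6.07 CPM for 7 endothelial and 2.22 to 4.25 for 9 immune markers, with Cldn5, Adgre1, Cd3e and Nkg7 at 0. Most of the endothelial sum was Pecam1, with a mean of 5.26 CPM. Most of the immune sum was Cd68 and Csf1r, with means of 1.65 and 1.26 CPM. None of these 3 sums passed an exact permutation test between the groups (two-sided p = 0.754, 0.111 and 0.905, or 0.905, 0.631 and 0.905 after Benjamini-Hochberg adjustment over 6 marker lists). Library totals ran from 18292624 to 21820560 counts. Control replicate 5 stood apart in its share of mitochondrially encoded reads, 1.16% against 1.80% to 2.27% in the other 9 libraries. Fold changes that rest on it are therefore given with and without it.

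All 5 epithelial regulators were expressed, and among the mesenchymal ones Snai2 made up most of the signal. Levels were set side by side only per length, as CPM per kb of merged exons, given here as mean and SD over all 10 libraries. Esrp1 came first at 52.8 ± 1.41, followed by Snai2 at 21.4 ± 1.80, Grhl2 at 18.3 ± 0.648 and Esrp2 at 15.4 ± 0.400. A middle tier held Snai1 at 3.47 ± 0.781, Ovol2 at 2.71 ± 0.468 and Ovol1 at 2.13 ± 0.248. Among the 14058 tested genes with a length, Esrp1 stood at the 94.3 percentile on this scale, Snai2 at 82.6, Snai1 at 36.4 and Ovol1 at 27.0. The ranges over libraries overlapped between Snai2 and Grhl2, between Snai1 and Ovol2 and between Ovol2 and Ovol1, so these neighbours are not ordered beyond their spread. With the longest coding transcript as the length, chosen after the values were seen, Grhl2 (31.9) passed Snai2 (21.4) and Ovol2 (3.71) passed Snai1 (3.47), and the other places held.

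**Figure D1:**
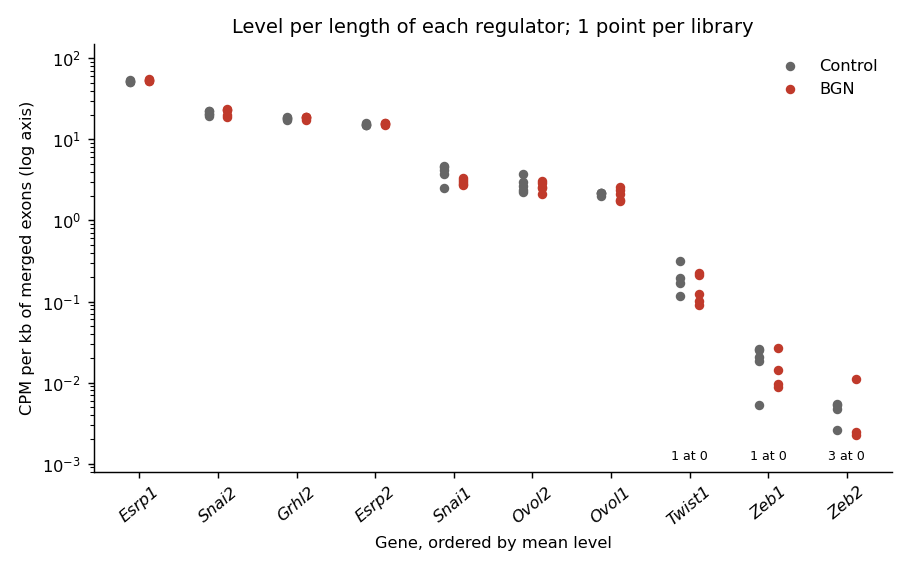
Level of each regulator in CPM per kb of merged exons on a log axis, 1 point per library, Control in grey and BGN in red, with libraries at 0 written as a count. Esrp1, Snai2, Grhl2 and Esrp2 lie above 10 in every library, and Twist1, Zeb1 and Zeb2 lie below 1.

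Zeb1, Zeb2 and Twist1 were close to absent. Zeb1, a repressor central to EMT in carcinoma cells, had 31 reads in all 10 libraries together: 3, 5, 0, 2 and 2 in BGN replicates 1 to 5 and 1, 4, 4, 5 and 5 in Control. Zeb2, its paralog, had 13 reads: 1, 4, 0, 0 and 1 in BGN and 2, 2, 2, 1 and 0 in Control. Twist1 had 50 reads: 7, 3, 4, 3 and 8 in BGN and 5, 4, 6, 10 and 0 in Control. Summed reads in BGN and Control were 12 and 19 for Zeb1, 6 and 7 for Zeb2 and 25 each for Twist1, and the libraries of the groups overlapped for each gene. Over all libraries these counts correspond to 0.158 CPM for Zeb1 (exact Poisson 95% interval 0.107 to 0.224), 0.0661 for Zeb2 (0.0352 to 0.113) and 0.254 for Twist1 (0.189 to 0.335), scaled by library totals; the intervals cover counting error only. Per kb, Zeb1 and Zeb2 lay below all tested genes with a length. Those genes all passed a filter on low counts that Zeb1 and Zeb2 did not pass. Their place below them therefore follows in large part from that filter.

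At this depth the 3 genes could not be tested with the rest, since none passed the filter on low counts. The BGN to Control ratio of summed counts per total was 0.605 for Zeb1 (95% interval from the exact binomial limits, 0.268 to 1.31), 0.821 for Zeb2 (0.228 to 2.85) and 0.958 for Twist1 (0.528 to 1.74). These intervals leave room for differences of over 1.5-fold in either direction for Zeb2 and Twist1, and in the lower direction for Zeb1. They cover counting error only and not variation between libraries, so a larger rise of Zeb1 is not excluded. Zeb2os, an antisense gene that shares exon bases with Zeb2, had 0 reads. In bulk RNA, fewer cells that carry a transcript and less of it per cell cannot be told apart. The stromal marker sums above stand beside these values, and their part in them was not tested.

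Biglycan-treated and control cells did not differ in any tested regulator beyond the test's threshold. The 7 regulators that passed the filter, 2 mesenchymal and all 5 epithelial, were read from an edgeR quasi-likelihood fit over all 14415 tested genes. None was called at a Benjamini-Hochberg adjusted p under 0.05, in a fit that called 0% of all genes (0 genes by edgeR). At an unadjusted p under 0.05 that fit had 694 genes, or 4.81%. DESeq2, run without that filter, also called 0, with 746 of 26530 genes under an unadjusted 0.05. Limma-voom called 0 as well, with 808 of 14415 genes under an unadjusted 0.05. One regulator, Snai1, was under an unadjusted 0.05. The CPM of the groups overlapped for all 7, where 0.728% of tested genes did not overlap. Fold changes beyond 1.5 in either direction fell outside the 95% interval for 6 of the 7, all but Snai1, against 84.9% of tested genes.

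**Figure D2:**
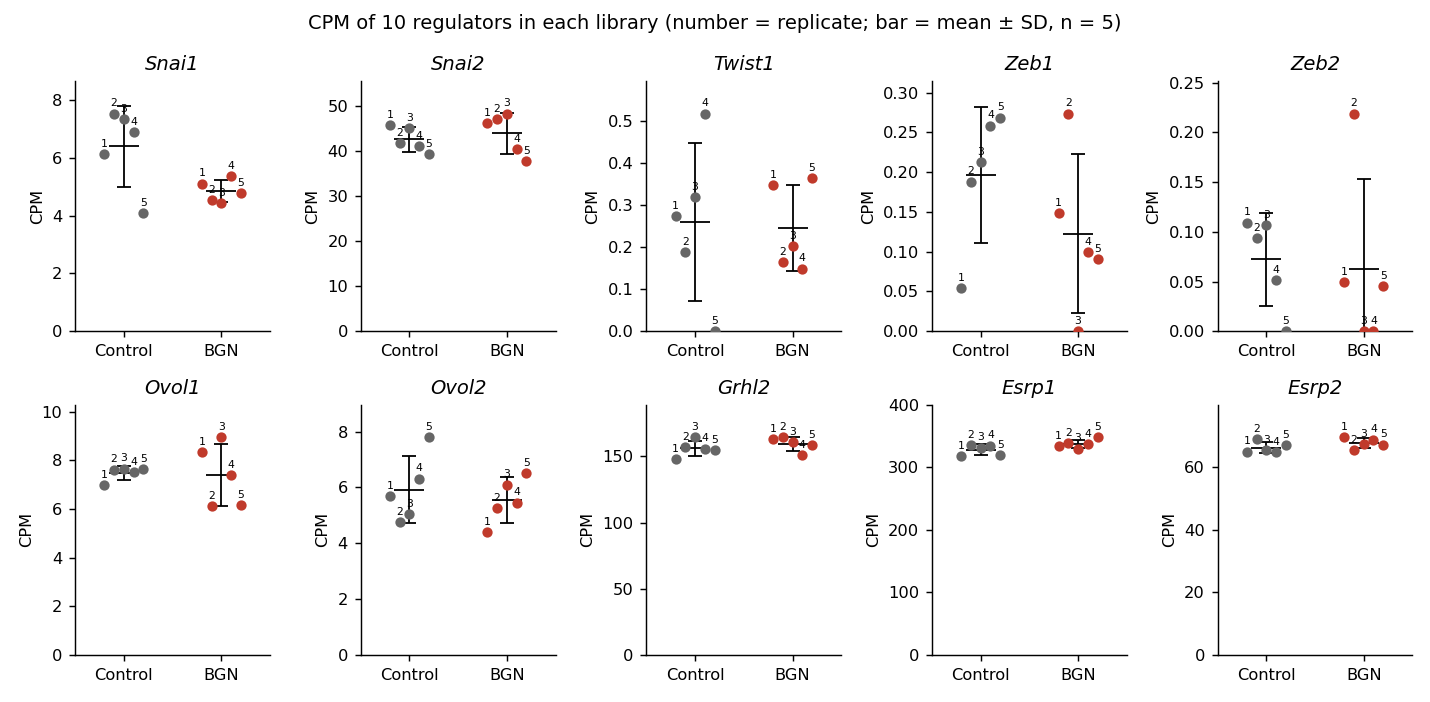
CPM of each regulator in each library, with its own vertical axis from 0; points are libraries with their replicate number, and bars are mean ± SD (n = 5 per group). The groups overlap in every panel, and for Snai1 the overlap comes from Control replicate 5, at 4.08 CPM.

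Snai1, the repressor whose induction is an early step of many EMT programmes, had the largest estimate of the 7 tested regulators, below 0, which is toward a lower level with biglycan. Its level was 5.11, 4.54, 4.42, 5.36 and 4.79 CPM in BGN replicates 1 to 5, and 6.12, 7.53, 7.35, 6.88 and 4.08 CPM in Control. Controls 1 to 4 lay above all 5 BGN libraries, and Control replicate 5 lay below them. The means were 4.84 ± 0.388 and 6.39 ± 1.40 CPM (SD, n = 5 each). On the log2 scale the fold change was -0.40, with an SE of 0.14 and a 95% interval of -0.69 to -0.11. The unadjusted p was 0.00877 and the adjusted p 0.945 by edgeR, so the difference did not pass over all genes, and Snai1 ranked 98 among them by p. These values rest on 76 to 160 reads per library.

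The Snai1 estimate kept its sign under all 20 alternative settings, from -0.52 to -0.33, with unadjusted p between 0.000163 and 0.0326 and adjusted p between 0.231 and 1.00. Without Control replicate 5 the log2 fold change was -0.52, the adjusted p by edgeR was 0.231, and the groups did not overlap, as held for 1.61% of tested genes. With both replicates 5 left out it was -0.52 as well, with an adjusted p of 0.280 by edgeR. Among settings that kept Control replicate 5, the lowest estimate was -0.47, by limma-voom. That library had the lowest Snai1 level and the lowest mitochondrial share, and whether these are related was not tested. The library leaving the smallest estimate when removed was Control replicate 2 (-0.33).

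**Figure D3:**
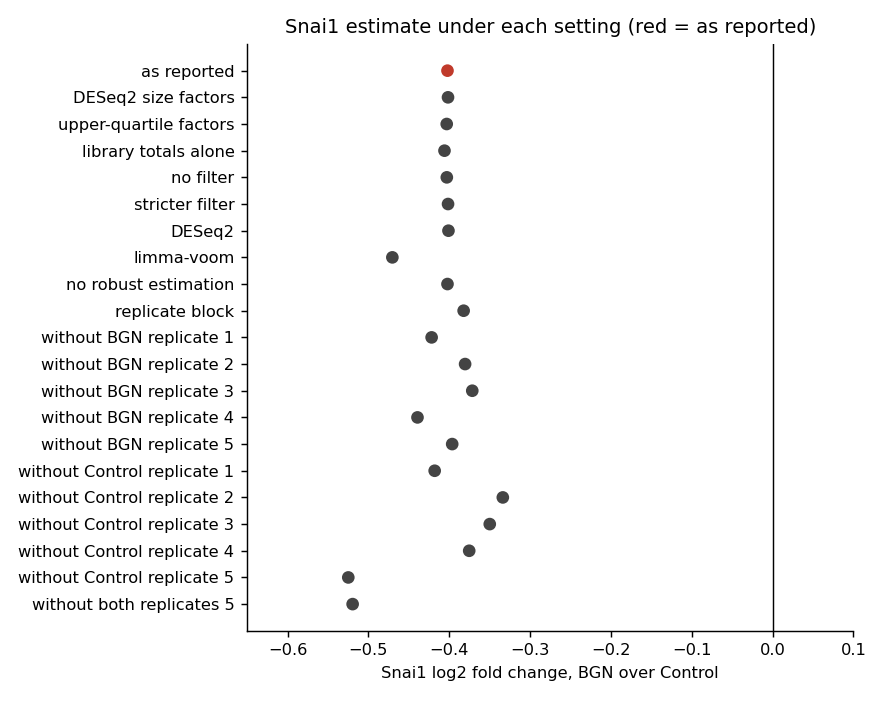
Log2 fold change of Snai1, BGN over Control, as reported (red) and under each of 20 alternative settings (grey). All points lie below 0, between -0.52 and -0.33, with the lowest values without Control replicate 5.

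Snai2, at the higher level per kb of the SNAI pair, had an estimate close to 0. Its level was 46.3, 47.1, 48.3, 40.5 and 37.8 CPM in BGN and 45.8, 41.8, 45.1, 41.2 and 39.3 CPM in Control. BGN held both the highest and the lowest library. The log2 fold change was 0.045 ± 0.066 (SE, 95% interval -0.092 to 0.18; adjusted p = 0.979 by edgeR), which bounds a change to between 0.938-fold and 1.13-fold. The estimate moved between 0.0082 without BGN replicate 3 and 0.097 without BGN replicate 5. In every library Snai2 made up most of the summed mesenchymal regulators per kb, from 81.2% (Control replicate 2) to 89.3% (BGN replicate 3). The ratio of Snai1 to Snai2 per kb, which does not depend on scaling between libraries, was 0.139 ± 0.0223 in BGN and 0.186 ± 0.0382 in Control, with ranges of 0.114 to 0.165 and 0.130 to 0.225 that overlapped. The overlap came from Control replicate 5 alone, at 0.130, since Controls 1 to 4 were at 0.166, 0.225, 0.203 and 0.208.

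The splicing regulators Esrp1 and Esrp2 had the lowest spread within groups of the 7 tested genes. Esrp1 stood at 334, 339, 329.9, 337 and 348 CPM in BGN and 318, 336, 332, 335 and 319 CPM in Control. The 3 highest libraries were in BGN and the 2 lowest in Control, and the middle 5 were mixed. Its log2 fold change was 0.042 ± 0.037 (SE, 95% interval -0.034 to 0.12; adjusted p = 0.965 by edgeR), or 0.022 without both replicates 5 and 0.028 by limma-voom. Esrp2 ranged from 65.4 to 69.5 CPM with biglycan and from 64.6 to 68.8 CPM without. Its log2 fold change was 0.032 (95% interval -0.056 to 0.12). Esrp1 exceeded Esrp2 per kb by a ratio of 3.44 ± 0.121 in BGN and 3.42 ± 0.112 in Control. The within-group coefficient of variation was 2.33% for Esrp1 and 2.46% for Esrp2, against a median of 8.0% over all tested genes; both are abundant, and counting alone gives 1.24% and 2.76% at their mean counts. On the other strand, exons of Esrp2 overlap those of Nfatc3 (219 bases, 24931 reads in all) and 1810019D21Rik (119 bases, 1141 reads). Esrp2 had 13152 reads. How the counting treated strand is not known here, so reads of the shared stretches cannot be assigned between the genes.

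Grhl2, a Grainyhead factor that sustains Cdh1 and other junction genes, had an estimate close to 0 as well. It stood at 163, 164, 161, 151 and 158 CPM in BGN and at 148, 157, 164, 156 and 155 CPM in Control. The lowest library was Control replicate 1, and the highest values of the groups were nearly equal. The log2 fold change was 0.031 ± 0.040 (SE, 95% interval -0.053 to 0.11; adjusted p = 0.977 by edgeR), or 0.964-fold to 1.08-fold. It was 0.012 without Control replicate 1, and 0.052 and 0.049 without BGN replicate 4 or Control replicate 3. The antisense gene Gm16136 shares 169 exon bases with Grhl2, whose merged exons span 8.61 kb. It had 4345 reads in all, against 30995 for Grhl2, and how many fell in the shared bases is not known.

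The OVOL factors, zinc-finger repressors of the mesenchymal programme, were lower per kb than the other epithelial regulators and had wider intervals. Ovol1 was at 8.33, 6.13, 8.95, 7.39 and 6.15 CPM in BGN and at 6.99, 7.62, 7.66, 7.50 and 7.63 CPM in Control. The Control libraries sat together inside the wider BGN range. The log2 fold change was -0.019 (95% interval -0.25 to 0.21; adjusted p = 0.994 by edgeR), with a sign that turned without BGN replicate 2 (0.040), without BGN replicate 5 (0.044) or without both replicates 5 (0.051). Ovol2 was at 4.41, 5.25, 6.10, 5.46 and 6.52 CPM in BGN and at 5.68, 4.75, 5.06, 6.31 and 7.79 CPM in Control. Control replicate 5, the lowest library for Snai1, was the highest for Ovol2. The log2 fold change of Ovol2 was -0.088 (95% interval -0.38 to 0.20; adjusted p = 0.980 by edgeR), or 0.030 without that library. Counts ran from 112 to 176 per library for Ovol1 and from 89 to 145 for Ovol2. The transcribed pseudogene Gm31166, which lies across exons of Ovol1 on the other strand, had 226 reads against 1461 for Ovol1.

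**Figure D4:**
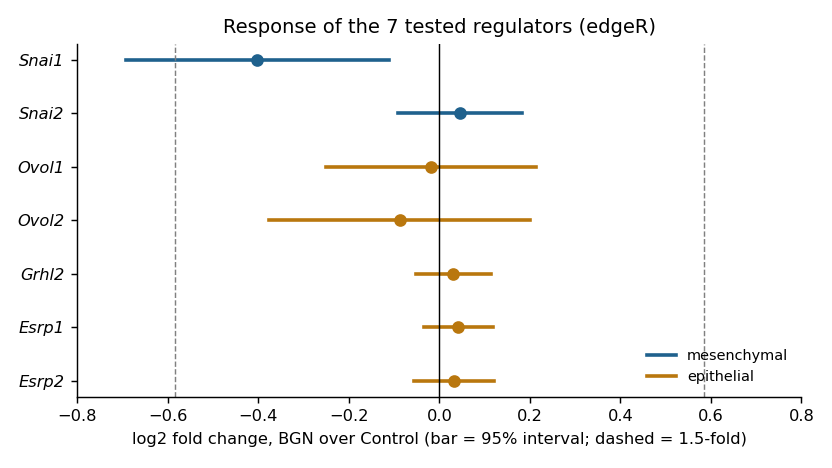
Log2 fold change (BGN over Control) of the 7 tested regulators with its 95% interval, mesenchymal in blue and epithelial in orange; dashed lines mark 1.5-fold. The intervals of Esrp1, Esrp2 and Grhl2 are the narrowest, and only that of Snai1 leaves out 0 and crosses a dashed line.

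No pair of regulators correlated past the threshold across libraries. Over the 21 pairs of the 7 tested genes, Pearson's r of log2 CPM ran from -0.52 to 0.43 (9 above and 12 below 0). The strongest was between Snai2 and Ovol2, with r = -0.52 (permutation p = 0.125, 0.760 adjusted over 21 pairs) and Spearman's rho = -0.52 (permutation p = 0.134, 0.614 adjusted; n = 10 libraries). It was -0.46 within BGN, -0.64 within Control and -0.63 without BGN replicates 3 and 5. Snai1 and Ovol2 gave r = -0.48 (permutation p = 0.161, 0.760 adjusted) and rho = -0.52 (permutation p = 0.132, 0.614 adjusted), and r = -0.24 without Control replicates 2 and 3; within the groups r was -0.44 in BGN and -0.90 in Control. Snai1 and Snai2 gave r = -0.00019 (permutation p = 1.00) and rho = -0.079 (permutation p = 0.837), with r of -0.49 in BGN, 0.54 in Control and -0.027 without Control replicates 2 and 3. For the pairs named above, Control replicate 5, the lowest library for Snai1 and the highest for Ovol2, was not among the libraries left out. Their r without that library alone was not calculated, so how far they rest on it is not known. None of the 21 passed a permutation p of 0.05, adjusted or unadjusted.

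Of 11964 genes searched for the profile over the 10 libraries most like that of each regulator, the top match by Pearson's r was Elf4 for Snai1 (0.89), Tbl1xr1 for Snai2 (0.91), Tmc7 for Ovol1 (0.94), Bscl2 for Ovol2 (0.95), Camk2d for Grhl2 (0.96), Zfp72 for Esrp1 (0.94) and Zbtb43 for Esrp2 (0.93). Each is the highest of 11964 values over 10 libraries that share their depth and composition, and the match of Tmc7 to Ovol1 was 1.00 within BGN and 0.10 within Control. They are given as a description.

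The network around these regulators was measured in 8 further lists, also chosen with earlier results of these data known. Of 101 genes, 93 were tested, 0 were called, and 5 (5.38%) had an unadjusted p under 0.05, close to the 4.81% of all genes. The groups overlapped for all 93. Estimates lay above 0 for 56 (60.2%), against 48.0% of all tested genes, and 89 had intervals within 1.5-fold. The smallest adjusted p among them was 0.945 by edgeR. From each list up to 3 genes of highest CPM and the gene of smallest p are named, the latter picked for its p.

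Genes that SNAI and ZEB factors repress ranged widely in level, from 3.96 CPM per kb for Llgl2 and 6.59 for Crb3 to 514 for Epcam. Of 18 epithelial targets all were tested, 7 with estimates above and 11 below 0, a median log2 fold change of -0.030 beside -0.0040 over all tested genes. Epcam, an adhesion molecule whose promoter is shown above, was at 1119 ± 24.2 CPM with biglycan and 1136 ± 43.0 CPM without (mean ± SD, n = 5 each, as in the values that follow). Cdh1, encoding E-cadherin, was at 895 ± 10.2 and 867 ± 26.2 CPM, and Dsp, encoding the desmosomal linker desmoplakin, at 798 ± 71.4 and 773 ± 55.3 CPM, each with its SD and biglycan first. Crb3, the polarity gene with 3 E-boxes in the stretch shown, had the smallest p of the list, at 9.70 ± 0.645 and 10.9 ± 0.372 CPM (log2 fold change -0.17, 95% interval -0.35 to 0.0014). Among 15 mesenchymal targets 14 were tested, 8 above and 6 below 0 (median 0.0055). Postn, encoding the matrix protein periostin, had both the highest CPM and the smallest p, at 2032 ± 223 and 1729 ± 326 CPM (log2 fold change 0.23, unadjusted p = 0.122 and adjusted p = 0.945 by edgeR). Tnc, encoding tenascin-C, was at 723 ± 51.3 and 699 ± 35.5 CPM. The receptor gene Fgfr1 was at 261 ± 7.06 and 262 ± 17.9 CPM. Vim, encoding vimentin, a filament protein of mesenchymal and basal cells, was at 104 ± 10.3 and 109 ± 12.1 CPM.

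Of 16 further EMT transcription factors 11 were tested, 9 above and 2 below 0 (median 0.056). The SOX factor genes Sox4 and Sox9 were at 752 ± 25.0 and 723 ± 20.4 CPM and at 392 ± 17.1 and 373 ± 19.4 CPM, and Tcf12, which encodes a bHLH partner of TWIST1, at 234 ± 5.60 and 225 ± 12.1 CPM. Klf8, a Kruppel-like repressor of Cdh1, had the smallest p of the list, at 6.03 ± 0.388 and 4.73 ± 0.612 CPM (log2 fold change 0.35, 95% interval 0.11 to 0.59, unadjusted p = 0.00681 and adjusted p = 0.945 by edgeR). Its estimate was above 0 and that of Snai1 below. The paralogs Snai3 and Twist2 had means of 0.184 and 0.0208 CPM over the 10 libraries.

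Of 15 further epithelial transcription factors 13 were tested, 9 above and 4 below 0 (median 0.029), and Ovol3, the paralog of the other OVOL genes, had 0 reads. The ETS factor genes Ehf and Elf5 were at 725 ± 26.1 and 725 ± 17.9 CPM and at 272 ± 6.85 and 276 ± 6.16 CPM. Foxa1, a luminal pioneer factor with the smallest p of the list, was at 19.0 ± 1.39 and 16.7 ± 1.71 CPM (log2 fold change 0.19, unadjusted p = 0.0237 and adjusted p = 0.945 by edgeR).

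**Figure D5:**
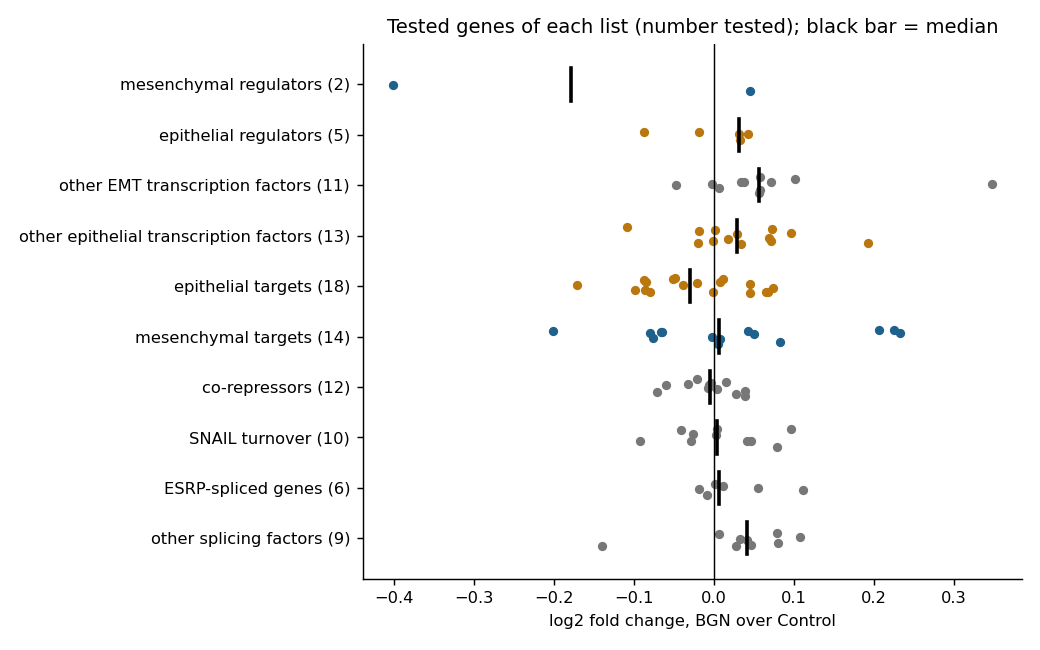
Log2 fold change (BGN over Control) of each tested gene, by list, with the number tested in brackets and the median as a black bar; vertical scatter within a row has no meaning. The 2 points farthest from 0 are Snai1 at -0.40 and Klf8 at 0.35, and the others lie between -0.20 and 0.23.

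All 12 genes of co-repressors through which SNAI and ZEB factors act were tested, 5 above and 7 below 0, with log2 fold changes between -0.071 and 0.039. The histone deacetylase gene Hdac1 was at 190.1 ± 4.78 and 191 ± 13.3 CPM, the CoREST gene Rcor1 at 182 ± 5.76 and 177 ± 4.41 CPM, and the demethylase gene Kdm1a at 176 ± 5.59 and 174 ± 2.50 CPM. Ctbp1, with the smallest p, had a log2 fold change of -0.060 (unadjusted p = 0.167 and adjusted p = 0.948 by edgeR). All 10 genes of SNAI1 turnover were tested, 6 above and 4 below 0 (median 0.0031). Gsk3b, whose kinase marks SNAI1 for degradation, had the highest CPM and the smallest p, at 257 ± 13.4 and 240.1 ± 12.6 CPM (log2 fold change 0.097, unadjusted p = 0.0421 and adjusted p = 0.945 by edgeR). Pak1, encoding a kinase of SNAI1, was at 159.7 ± 4.31 and 163 ± 7.32 CPM, and Fbxo11, encoding a ubiquitin ligase subunit, at 146 ± 6.89 and 141 ± 4.92 CPM. Counts of RNA do not measure SNAI1 protein, which is short-lived and controlled after translation.

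For the splicing arm, the deposited counts are per gene and cannot show isoforms. Of 6 genes whose splicing the ESRP proteins control, 4 lay above and 2 below 0 (median 0.0060). Cd44, the hyaluronan receptor gene, had the highest CPM and the smallest p, at 677 ± 17.9 and 627 ± 23.2 CPM (log2 fold change 0.11, 95% interval 0.032 to 0.19, unadjusted p = 0.00812 and adjusted p = 0.945 by edgeR). Enah and Slk, cytoskeletal genes with ESRP-controlled exons, were at 166 ± 4.17 and 168 ± 7.59 CPM and at 167 ± 3.69 and 165 ± 8.97 CPM, and Fgfr2, the best known ESRP target, at 62.3 ± 3.91 and 62.7 ± 3.71 CPM. Of 9 other splicing factors, 8 lay above and 1 below 0 (median 0.041). Srsf1 was at 471 ± 31.4 and 456 ± 33.6 CPM, Hnrnpm at 379 ± 22.5 and 378 ± 24.2 CPM and Ptbp1 at 369.9 ± 16.0 and 362 ± 13.7 CPM. Mbnl2, with the smallest p, was at 301 ± 12.1 and 279.5 ± 26.5 CPM (log2 fold change 0.11, unadjusted p = 0.0626 and adjusted p = 0.945 by edgeR).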

How the data were processed

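Poly-A selected RNA libraries of 10 samples were used. The authors deposited raw whole-number counts per gene symbol, 1 column per sample. Per the submitters' processing notes the tools were FastQC, cutadapt 1.9.1, HISAT2 2.2.1, HTSeq and DESeq2 and the build GRCm39; annotation and strand setting: not given in the sources used here. Groups came from the sample titles.

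The filterByExpr function kept 14415 genes, TMM set the scaling, and edgeR 4.0.16 under R 4.3.3 gave the quasi-likelihood test with robust estimation, treatment as the single term, Benjamini-Hochberg adjustment over all tested genes. SE came from the fold change and its F statistic. CPM use TMM factors except where library totals are named. Lengths are merged exons of GENCODE M21 by symbol, known for 97.5% of tested genes. Correlations took log2 CPM (prior count 2) and 100000 permutations. The steps were tested on simulated data. Alternatives were other scalings and filters, DESeq2 1.42.0, limma-voom with quality weights (limma 3.58.1), no robust estimation, the replicate block and leaving out libraries.

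The members and lists were chosen with earlier results of these data known. Named genes were the 10 members, the 3 genes of highest CPM and the gene of smallest p of each further list, Cdh1, Epcam and Vim, and each member's closest profile; Fgfr2, Snai3, Twist2 and Ovol3 were named after their values were seen, as family members or a known splicing target. One gene that the rule names is not reported here.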

Additional observations from a re-analysis of the deposited data

Results flagged for a closer look

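In 2 of the 20 groups of 5 values (10 genes in 2 groups), 1 library lay far from the other 4. For normally distributed values, a gap this wide arises by chance in about 1 in 20 groups. For counts near 0, as in Zeb2, that share is not known. Zeb2 was at 0.219 CPM in BGN replicate 2, which is 4 reads where the other BGN libraries had 0 or 1. Ovol1 was at 6.99 CPM in Control replicate 1, below the other Control libraries at 7.50 to 7.66 CPM.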

How the results depend on the processing

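Of 140 fold changes (7 regulators under 20 settings), 136 kept their direction and 0 passed the adjusted threshold. The 4 that turned were Ovol1 without BGN replicate 2 (0.040), without BGN replicate 5 (0.044) and without both replicates 5 (0.051), and Ovol2 without Control replicate 5 (0.030); the cause was not tested. With no filter on low counts 3 genes of 26531 were called, none of them among the 10, and Zeb1, Zeb2 and Twist1 then had adjusted p of 0.806, 0.979 and 0.996 by edgeR. Leaving out 1 library, Ovol1 ran from -0.096 to 0.044 and Ovol2 from -0.16 to 0.030. The number of genes called was 0 under the other 19 settings, single libraries left out included. No pair of regulators passed with a prior count of 0.5 or with library totals alone (0 of 21 each). The labels do not say whether same-numbered libraries are paired. The values showed no clear pairing, though 5 pairs are too few to exclude it. Of 5 same-numbered pairs, 1 had deviations correlated above 0.1 (range -0.020 to 0.20). Among the libraries, 1 of 5 BGN and 2 of 5 Control correlated best with their own number. With the replicate block 0 genes were called and Snai1 had a log2 fold change of -0.38 (adjusted p = 0.831 by edgeR). The block gave 825 genes at an unadjusted p under 0.05 by edgeR, against 694 without it. Its smallest adjusted p by edgeR was 0.238, against 0.883. Depth limits Zeb1, Zeb2 and Twist1 most, at 0 to 10 reads per library.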
